A study of Mus musculus with 6 samples.

Results

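The genes described here are 43 genes of the cell division cycle, which form the cyclins, the cyclin-dependent kinases (CDKs), the CDK inhibitors, the retinoblastoma and E2F proteins, the replication factors and the mitotic regulators listed below. They are a list of names, whose rule uses no measured value, although it was drawn up with earlier results of these data known, and they make up 43 of the 37224 genes in the deposited table. For this description they were placed in 6 classes, namely 8 G1/S cyclins and kinases, 4 S/G2/M cyclins and kinases, 5 CDK inhibitors, 8 pocket proteins and E2F factors, 7 replication genes and 11 genes of mitosis and proliferation. Whole pancreata of untreated wild-type (wt) C57/Bl6J mouse embryos were profiled by RNA sequencing at 13.5 and 15.5 days post coitum (dpc), with 3 biological replicates at each stage and no other genotype or agent. Each sample was a pool of pancreata of up to 3 embryos, so differences between embryos and between the cell types of the organ are averaged within it. The comparison asks how the expression of the cell cycle genes differed between the stages.

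D-type cyclins with Cdk4 or Cdk6, followed by cyclin E with Cdk2, phosphorylate the retinoblastoma (pocket) proteins and so release the activating E2F factors, which turn on genes of DNA replication. Cyclin A and B with Cdk1 then carry the cell through S phase, G2 and mitosis, whereas CDK inhibitors of the Cip/Kip and INK4 families hold these kinases back. In the embryonic pancreas, progenitor cells divide while the first acinar, duct and endocrine cells form, and endocrine cells leave the cycle as they differentiate.

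Total counts were 12895732 to 16389237 at 13.5 dpc and 10546028 to 12491550 at 15.5 dpc. Values are given as normalised counts, which are counts scaled with the TMM factors of edgeR to a common library size, and levels of different genes are compared only as RPKM, the counts per kilobase of exon and per 1000000 counts of the TMM-scaled library size. Sums over a class are given as CPM, the counts per 1000000 counts of that same scaled size. The stages were compared with edgeR's quasi-likelihood test on 15578 genes, and a gene is called higher or lower where its adjusted p was at or below 0.05. Log2 fold changes are of 15.5 over 13.5 dpc and are given with their standard error (SE). The members together held 0.545% to 0.693% of the counts of a sample. A gene that did not pass the test was not shown to be level.

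Promoter sequences are shown for the 4 mitotic genes that passed the test, and for a replication gene that passed it in the other direction, because the promoters of these classes are known to carry different elements. The RefSeq promoter table (GRCm38.p6) held windows of 300 bases, 250 before and 50 after the transcription start, for 35 of the 43 genes, 42 windows in all. The windows were searched on both strands for the E2F letters TTTGGCGC, TTTCCCGC, TTTCGCGC and TTTGCCGC, for the cell cycle homology region (CHR) letters TTTGAA and TTCGAA, and for CCAAT, the core that NF-Y binds. Each line below gives the 250 bases before the start, read 5′ to 3′ on the strand of the gene, with every match in capitals. A match on the opposite strand appears as its reverse complement, ATTGG for CCAAT.
Cdc20 (chr4:118437344-118437593, minus strand): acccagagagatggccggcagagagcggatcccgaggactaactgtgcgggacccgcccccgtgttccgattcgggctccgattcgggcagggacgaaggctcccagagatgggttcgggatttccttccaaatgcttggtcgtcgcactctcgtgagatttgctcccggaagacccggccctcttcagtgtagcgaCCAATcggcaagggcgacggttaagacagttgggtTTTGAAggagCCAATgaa
Aurka (chr2:172370571-172370820, minus strand): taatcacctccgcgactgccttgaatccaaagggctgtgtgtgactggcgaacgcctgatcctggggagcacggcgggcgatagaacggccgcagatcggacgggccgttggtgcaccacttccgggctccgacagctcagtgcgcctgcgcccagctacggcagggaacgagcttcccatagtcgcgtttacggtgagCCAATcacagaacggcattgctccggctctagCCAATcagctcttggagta
Plk1 (chr7:122159185-122159434, plus strand): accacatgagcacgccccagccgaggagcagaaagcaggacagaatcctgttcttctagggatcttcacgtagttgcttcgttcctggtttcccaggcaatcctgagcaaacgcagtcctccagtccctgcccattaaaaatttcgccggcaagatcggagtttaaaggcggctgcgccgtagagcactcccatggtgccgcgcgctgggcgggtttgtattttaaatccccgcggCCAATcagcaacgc
Birc5 (chr11:117848987-117849236, plus strand): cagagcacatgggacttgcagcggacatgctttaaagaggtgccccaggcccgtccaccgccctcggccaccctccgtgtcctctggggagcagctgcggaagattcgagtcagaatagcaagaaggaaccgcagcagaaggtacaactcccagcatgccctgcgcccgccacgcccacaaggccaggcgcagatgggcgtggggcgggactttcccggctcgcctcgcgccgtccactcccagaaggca
Mcm3 (chr1:20820313-20820562, minus strand): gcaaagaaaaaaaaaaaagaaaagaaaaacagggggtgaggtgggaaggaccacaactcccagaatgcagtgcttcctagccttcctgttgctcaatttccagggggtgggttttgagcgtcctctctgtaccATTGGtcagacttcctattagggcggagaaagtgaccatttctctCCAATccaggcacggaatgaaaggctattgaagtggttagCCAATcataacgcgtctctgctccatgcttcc

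In *Cdc20* the CHR letters stood 18 to 13 bases before the start, between CCAAT matches. The windows of *Aurka* and *Plk1* held CHR letters 32 to 37 and 30 to 35 bases after the start, outside the bases shown. The window of *Mcm3* held E2F letters at 19 to 26 and at 38 to 45 bases after the start, and the window of *Birc5* held none of these letters. Over the windows of mitosis and proliferation genes, 7 of 9 held CHR letters, 7 of 9 held CCAAT and 0 of 9 held E2F letters. Of the replication windows, 2 of 7 held CHR letters, 7 of 7 CCAAT and 4 of 7 E2F letters. Among all 32851 promoter windows of the same length, 19.2% held CHR letters, 37.4% CCAAT and 2.26% E2F letters, against 35.7%, 66.7% and 26.2% of the 42 member windows. CHR letters were found in 0 of 8 windows of CDK inhibitors and in 0 of 6 of G1/S cyclins and kinases. A match of these letters is a description of the sequence only.

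Between 13.5 and 15.5 dpc, 10 cell cycle genes passed the test, 7 of them higher and 3 lower. The higher genes were *Ccna2*, *Cdkn2c*, *E2f2*, *Birc5*, *Aurka*, *Plk1* and *Cdc20*, and the lower genes were *Ccnd1*, *E2f3* and *Mcm3*. The other 32 of the 42 members that passed the filter on low counts did not pass the test, and *Cdkn2a* did not pass the filter. The background over all genes tested was 22.3% called, 11.6% higher and 10.7% lower, so 10 of 42 is close to the share among all genes. All differences were small, with at most 1.52-fold in either direction, and 28 of the 42 genes lay within 1.2-fold. The median log2 fold change was -0.0076 over the members and -0.011 over all genes tested, with 21 members above and 21 below 0. For 18 members the stages had no overlapping samples, 11 of them higher and 7 lower at 15.5 dpc, against a background of 46.4% of all genes tested, 22.8% higher and 23.6% lower. By the thresholds of the study's methods (an adjusted p of 0.1, a normalised count over 100 and a fold under 0.6 or over 1.6), 0 members passed against 9.88% of all genes, owing to the limit on fold. Without 13.5 dpc replicate 1, 2 or 3, or without 15.5 dpc replicate 3, only *Ccnd1* passed edgeR's test, and the other 9 genes had adjusted p values of 0.0554 to 0.164 over these 4 fits. Over all genes, 4.54%, 4.7%, 5.04% and 5.4% were called higher in these fits and 3.29%, 3.74%, 3.84% and 3.65% lower. At an unadjusted p under 0.05 there were 7 higher and 3 lower members in each of them, against 10 and 5 with all samples. The shares of all genes at that p were 14.2% to 15.7% higher and 13.2% to 13.6% lower in these fits, and 20.2% and 18.9% with all samples. Without 15.5 dpc replicate 2, 14 members were called higher and 8 lower, against 24.7% and 23.3% of all genes. With scaling by library size only, where the median over all genes was -0.22, edgeR called 0 members higher (4 at an unadjusted p under 0.05) and 7 lower, against 7.27% and 18.9% of all genes. The 7 higher genes lost their call under that scaling, with adjusted p values of 0.0682 to 0.370. *Ccna2*, *Plk1* and *Mcm3* also lost it with no filter on low counts (edgeR adjusted p = 0.0741, 0.0749 and 0.0623), *Birc5* and *Plk1* with upper quartile scaling (0.0511 and 0.0502), and *Mcm3* with RLE scaling (0.0502). With the replicate number as a block in the fit, *Ccna2*, *Cdkn2c*, *E2f3*, *Mcm3*, *Aurka* and *Plk1* lost it (edgeR adjusted p = 0.0549 to 0.126). None of the 10 changed sign under any of the 15 alternatives.

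**Figure D1:**
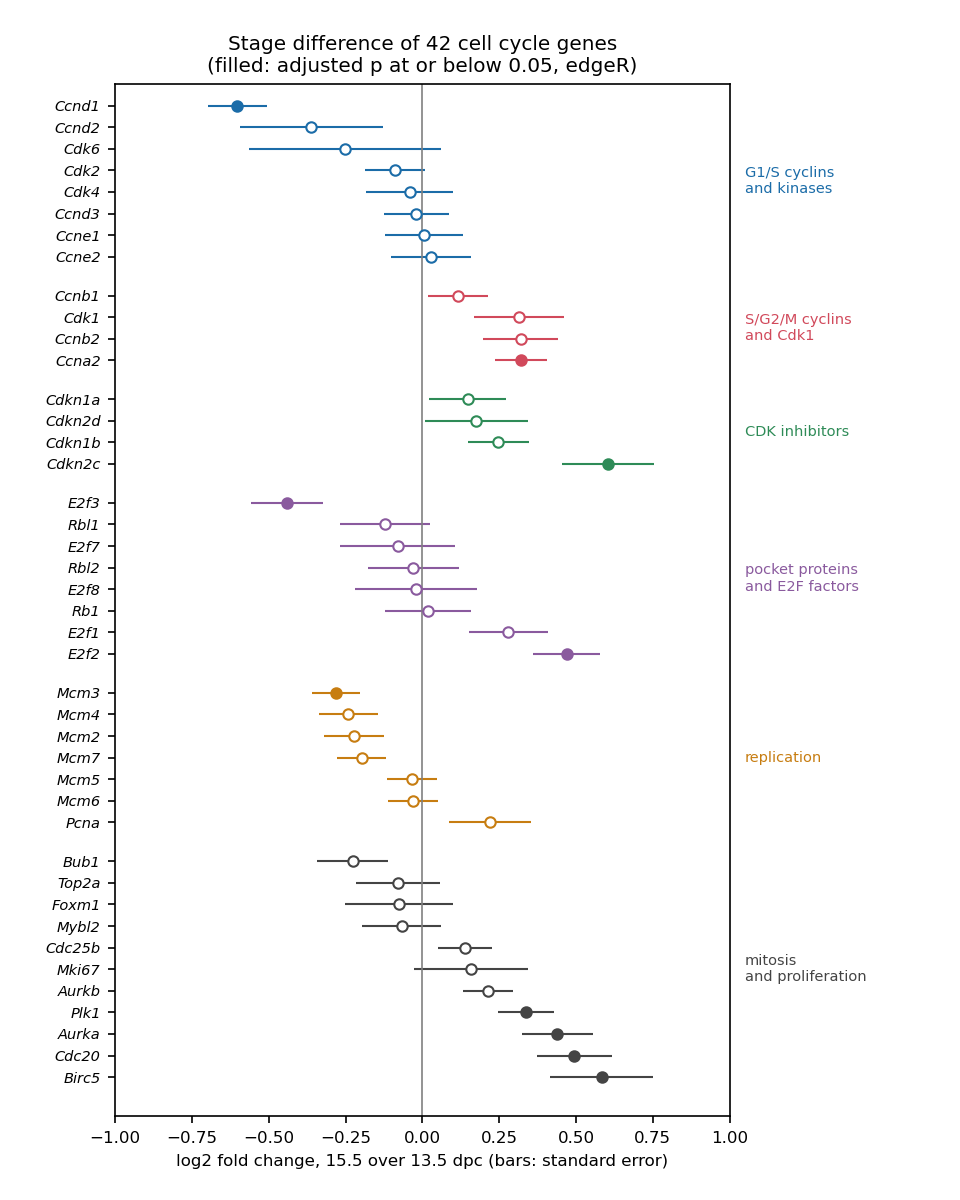
Log2 fold change of 42 cell cycle genes at 15.5 over 13.5 dpc, with bars for the SE, by class. Filled points passed edgeR's test, and they lie on the left for *Ccnd1*, *E2f3* and *Mcm3* and on the right for the other 7.

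The 15.5 dpc samples varied more than the 13.5 dpc samples, and their differences ran with exon length. Across the 42 members, the ratio of replicate 2 to replicate 1 at 15.5 dpc rose with exon length (Spearman rho = 0.78 over 42 genes of the same pair of libraries). The proliferation gene *Mki67*, with 10075 exon bases, was 1.64-fold higher in replicate 2, and *Top2a*, with 9013, was 1.41-fold higher. *Birc5*, with 3402 exon bases, was at 0.624 of its replicate 1 value, and *Cdc20*, with 1868, at 0.738. The highest ratios were 2.20 for *Cdk6* and 1.99 for *Ccnd2*. Over all genes tested, the Spearman correlation with exon length was -0.59 for replicate 1 over replicate 2 at 15.5 dpc. At 13.5 dpc it was -0.33 and -0.31 for replicates 1 and 2 over replicate 3, and -0.029 for replicate 1 over replicate 2. With a lowess trend on exon length removed from each library, all 10 called genes kept their call, and *Cdkn1b* and *Mki67* were called in addition, so that 9 members were higher and 3 lower, against 18.1% and 14.7% of all genes.

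**Figure D2:**
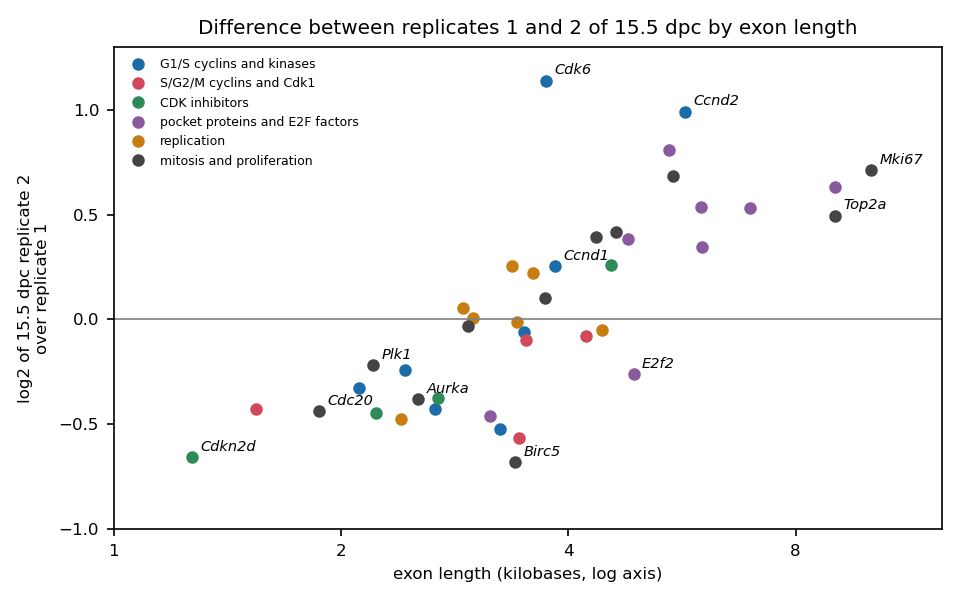
Log2 ratio of 15.5 dpc replicate 2 over replicate 1 for each of 42 genes against exon length in kilobases on a log axis, coloured by class. Short genes such as *Cdkn2d* and *Cdc20* lie below 0, and long genes such as *Mki67* and *Top2a* above it.

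Markers of the cell types in the organ also moved with stage. The summed level of 10 acinar markers, all above 0 in every sample, was 6048 to 7188 CPM at 13.5 dpc and 33507 to 77760 at 15.5 dpc, where 9 of the 10 were higher by edgeR's test. Within 15.5 dpc this sum was highest in replicate 1 and lowest in replicate 2, an order shared by 18 of the 42 members of all 6 classes, while 17 had the opposite order. Of 10 pancreatic epithelium markers, 4 were higher and 2 lower, with sums of 2122 to 2260 and 2801 to 3443, and of 10 endocrine markers 3 were higher and 2 lower, with sums of 2355 to 2532 and 2400 to 3875. Mesenchyme markers summed to 9665 to 10923 and 7133 to 10571 (2 higher and 3 lower of 10). Erythroid markers summed to 930 to 1152 and 90.1 to 125 (1 higher and 4 lower of 9 tested, with *Rhag* at 3 to 19 counts). The endothelial, immune, and neural and glia sums stayed within 623 to 709, 154 to 193 and 214 to 264. Their part in the results below was not tested, and in these whole organs fewer cells of a type and less RNA per cell cannot be told apart.

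**Figure D3:**
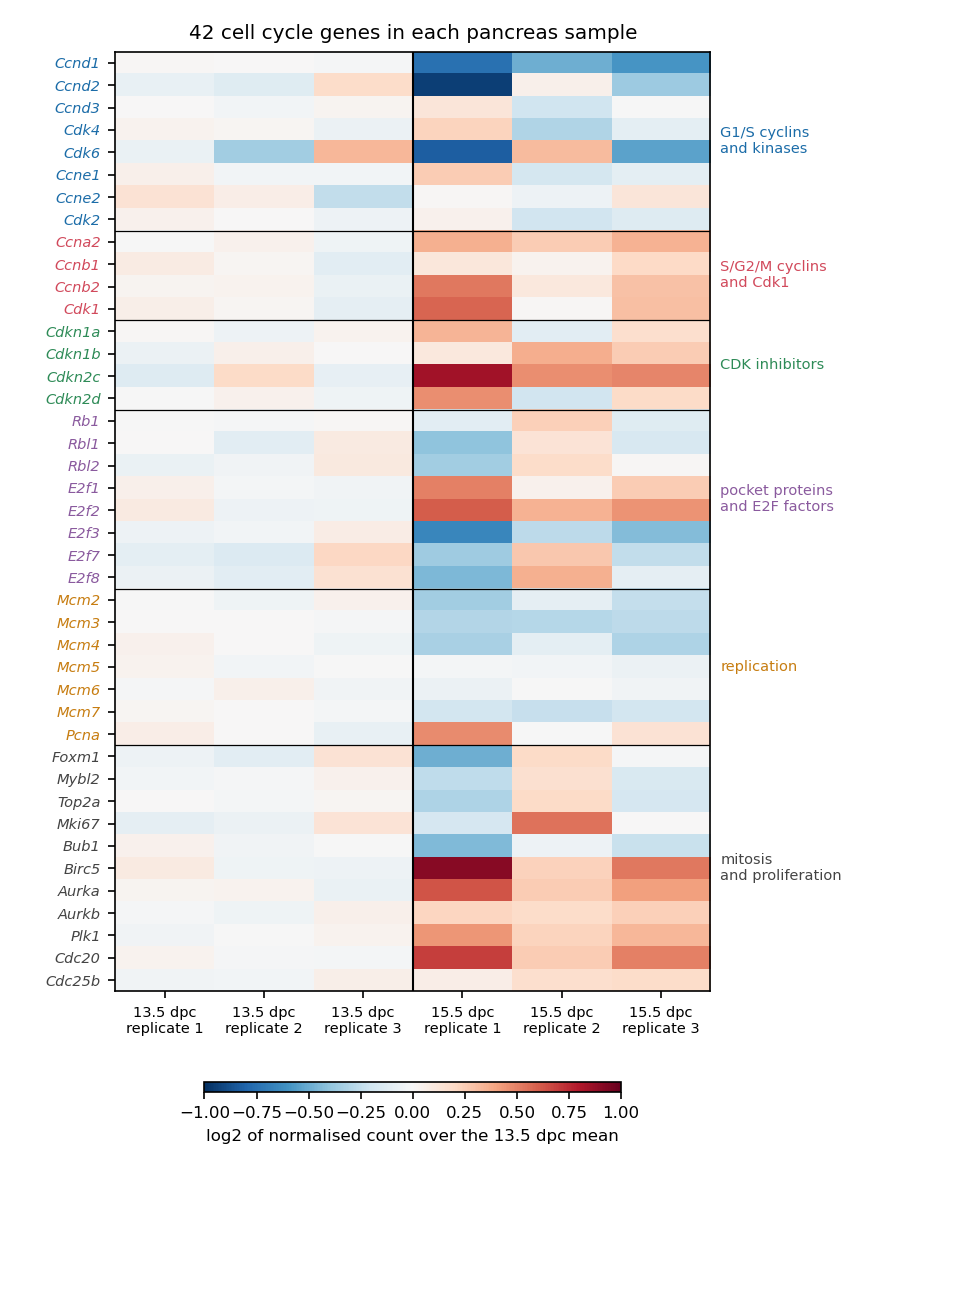
Log2 of each normalised count over the mean of the 13.5 dpc samples, for 42 genes in 6 samples, with red above and blue below that mean. *Ccnd1*, *E2f3* and *Mcm3* are blue and *Ccna2*, *Cdkn2c*, *E2f2*, *Birc5*, *Aurka*, *Plk1* and *Cdc20* red in all 15.5 dpc samples.

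Among the G1/S cyclins and kinases, only *Ccnd1* passed the test, and it fell. *Ccnd1*, the D-type cyclin that many growth signals induce, is on chromosome 7 of mm10 from 144929931 to 144939869. At 13.5 dpc it had 4796, 4758 and 4719 normalised counts in replicates 1, 2 and 3, and at 15.5 dpc it had 2844, 3391 and 3164. All 15.5 dpc samples thus lay below all 13.5 dpc samples. The log2 fold change was -0.60 (SE 0.096, edgeR adjusted p = 0.00569). *Ccnd1* was the only one of the 10 genes to keep its call in all 15 alternatives, with an adjusted p of at most 0.0425. Of its exon length, 21.3% overlaps exons of a gene on the opposite strand. *Ccne1*, the cyclin E gene whose product activates Cdk2 at the start of S phase, had the smallest difference in the class. *Ccne1* had 810, 768 and 766 normalised counts at 13.5 dpc and 933, 693 and 729 at 15.5 dpc. These overlap, and the log2 fold change was 0.0052 (SE 0.13, edgeR adjusted p = 0.981), with a sign that changed in 10 of 15 alternatives.

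The other 6 members of the class did not pass the test. *Ccnd2*, a second D-type cyclin gene, had a log2 fold change of -0.36 (SE 0.23, edgeR adjusted p = 0.283), and *Cdk6*, a partner of the D-type cyclins, one of -0.25 (SE 0.31, edgeR adjusted p = 0.574). Both were lowest in 15.5 dpc replicate 1 and, at that stage, highest in replicate 2. Without 15.5 dpc replicate 2, *Ccnd2* (log2 fold change -0.61, edgeR adjusted p = 0.0193) and *Cdk6* (-0.66, edgeR adjusted p = 0.0437) were both called lower. *Ccnd3*, *Cdk4*, *Ccne2* and *Cdk2* had log2 fold changes of -0.02, -0.04, 0.03 and -0.09. The class median was -0.065, and without 15.5 dpc replicate 1 or 2 it was -0.14 or 0.025.

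Per exon length, *Cdk4*, the main kinase partner of the D-type cyclins, had the highest level of all members. It stood at 223 ± 7.82 RPKM at 13.5 dpc and 217 ± 40.4 at 15.5 dpc (SD, n = 3). The D-type cyclins were ordered *Ccnd3*, *Ccnd1* and *Ccnd2*, with 174 ± 3.31, 98.2 ± 0.795 and 68.6 ± 8.08 at 13.5 dpc. At 15.5 dpc the levels were 172 ± 19.3, 64.6 ± 5.67 and 53.4 ± 17.7, and those of *Ccnd1* and *Ccnd2* lay within the spread of *Ccnd2*. The ratio of *Ccnd1* to *Ccnd3* within a sample, a quantity chosen after the values were seen, was 0.567, 0.575 and 0.549 at 13.5 dpc and 0.309, 0.462 and 0.375 at 15.5 dpc. *Cdk6* was far lower than *Cdk4*, with 2.75 ± 0.663 at 13.5 dpc and 2.29 ± 0.996 at 15.5 dpc.

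**Figure D4:**
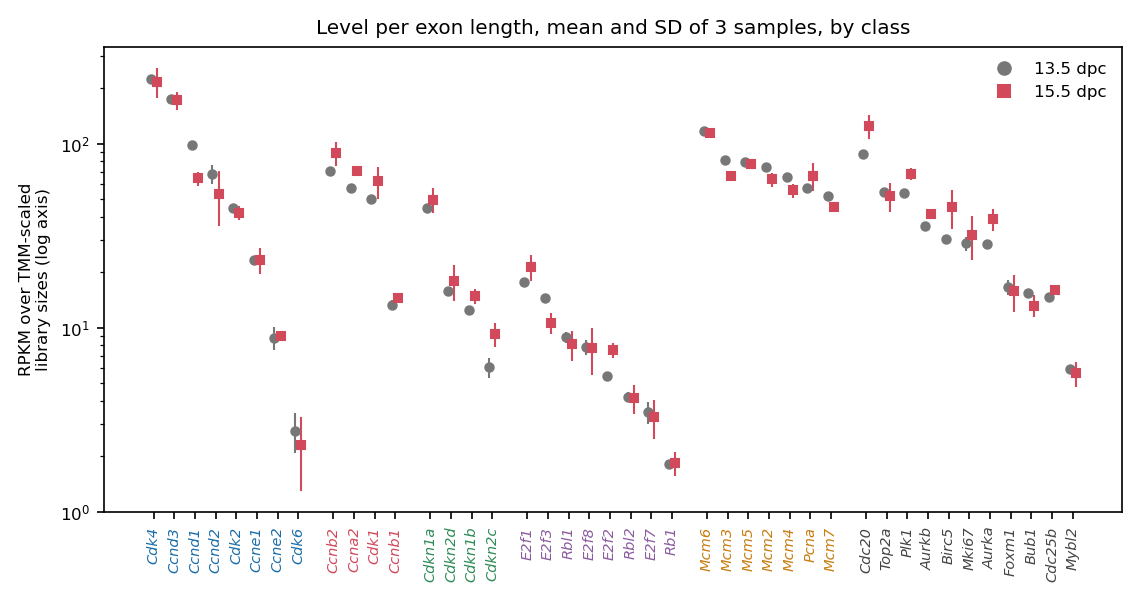
RPKM over TMM-scaled library sizes, on a log axis, for 42 genes by class, as the mean of 3 samples with bars for the SD at 13.5 dpc (circles) and 15.5 dpc (squares). *Cdk4* and *Ccnd3* stand highest at both stages, and *Rb1* is the lowest of the genes drawn.

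All 4 of the S/G2/M cyclins and kinases had a log2 fold change above 0, with a class median of 0.32, and only *Ccna2* passed the test. With library size only the median was 0.093, and *Ccnb1* turned to -0.096. *Ccna2*, which encodes the cyclin A of S phase and G2, lies on chromosome 3 from 36564866 to 36572150. At 13.5 dpc 2533, 2609 and 2464 normalised counts were found, and at 15.5 dpc 3248, 3031 and 3224. The stages did not overlap, and *Ccna2* rose by 0.32 on the log2 scale (SE 0.083, edgeR adjusted p = 0.0327). Without any of the 13.5 dpc samples or 15.5 dpc replicate 3 the adjusted p was 0.122 to 0.144. *Ccnb1*, which encodes a cyclin that brings Cdk1 into mitosis, had the smallest difference of the class. It had normalised counts of 750, 720 and 658 at 13.5 dpc against 768, 727 and 812 at 15.5 dpc, with overlap. The log2 fold change of *Ccnb1* was 0.12 (SE 0.097, edgeR adjusted p = 0.396), and its count is uncertain, since other transcripts, mostly of a pseudogene, share 23.4% of its 50-base windows.

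*Ccnb2*, the other B-type cyclin of the list, and *Cdk1*, their kinase, had log2 fold changes of 0.32 each (SE 0.12 and 0.15, edgeR adjusted p = 0.0969 and 0.155). Both were highest in 15.5 dpc replicate 1, and the stages did not overlap for *Ccnb2*. Without 15.5 dpc replicate 2 both were called higher (edgeR adjusted p = 0.00825 and 0.00859), whereas without replicate 1 their log2 fold changes were 0.20 and 0.16. The summed level of the class was 515 to 552 CPM at 13.5 dpc and 589 to 734 at 15.5 dpc, while that of the G1/S class was 2041 to 2093 and 1776 to 1900. Per 1000000 counts of the plain library size, the stages overlapped for the S/G2/M class, with 552 to 595 and 583 to 634, and not for the G1/S class, with 2203 to 2246 and 1607 to 1757. The ratio of these sums within a sample does not depend on scaling between samples. Like the other ratios of class sums below, it was not among the planned quantities and is formed from the same sums. It was 0.265, 0.270 and 0.246 at 13.5 dpc and 0.386, 0.332 and 0.371 at 15.5 dpc, with no overlap between the stages.

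Of the 5 CDK inhibitors, *Cdkn2c* passed the test, and the 4 that could be tested all had log2 fold changes above 0, of which *Cdkn1a* and *Cdkn2d* were below it (-0.076 and -0.050) with library size only, and *Cdkn2d* (-0.075) with the length trend removed. *Cdkn2c* encodes p18 of the INK4 family, which binds Cdk4 and Cdk6, and lies on chromosome 4 from 109660876 to 109667189. It had 189, 235 and 195 normalised counts at 13.5 dpc and 368, 284 and 288 at 15.5 dpc, so the lowest 15.5 dpc sample was above the highest 13.5 dpc sample. It rose by 0.60 on the log2 scale (SE 0.15, edgeR adjusted p = 0.0280), the largest rise among the members. Leaving out any of the 13.5 dpc samples or 15.5 dpc replicate 3 gave an adjusted p of 0.0554 to 0.120. *Cdkn1a*, which encodes p21 and is a target of p53, had 1266, 1216 and 1290 normalised counts at 13.5 dpc and 1594, 1169 and 1415 at 15.5 dpc. Here 15.5 dpc replicate 2 was the lowest and replicate 1 the highest of the 6 samples, and the log2 fold change was 0.15 (SE 0.12, edgeR adjusted p = 0.405).

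*Cdkn1b*, which encodes p27, and *Cdkn2d*, which encodes p19 of the INK4 family, had log2 fold changes of 0.25 (SE 0.10, edgeR adjusted p = 0.112) and 0.18 (SE 0.17, edgeR adjusted p = 0.459). For *Cdkn1b* the stages did not overlap. It was called higher without 15.5 dpc replicate 1 (edgeR adjusted p = 0.0253) and with the length trend removed (edgeR adjusted p = 0.00725). *Cdkn1a* and *Cdkn2d* were called higher without 15.5 dpc replicate 2 (edgeR adjusted p = 0.0394 and 0.0407). *Cdkn2a*, the locus of p16 and Arf, had 3, 1 and 2 counts at 13.5 dpc and 1 count in each 15.5 dpc sample, at or under the floor of 3 counts in all 6 samples, so it was not tested. Per exon length the highest of the class at 13.5 dpc was *Cdkn1a* with 44.8 ± 1.35 RPKM, and the lowest tested was *Cdkn2c* with 6.07 ± 0.742 (SD, n = 3). The ratio of the sum of this class to the G1/S sum was 0.0912, 0.0953 and 0.0928 at 13.5 dpc and 0.129, 0.116 and 0.126 at 15.5 dpc.

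*Cdkn1c*, which encodes the Cip/Kip inhibitor p57 and is not one of the 43 genes, is given here after its values were seen, because it was far more abundant than the inhibitors above. Its level was 676 ± 29.8 RPKM at 13.5 dpc and 536 ± 60.8 at 15.5 dpc (SD, n = 3), and its direction was the opposite. It had 17320, 15972 and 16175 normalised counts at 13.5 dpc and 14674, 11747 and 12799 at 15.5 dpc, without overlap. The log2 fold change was -0.33 (SE 0.11, edgeR adjusted p = 0.0673), so it did not pass the test. With *Cdkn1c* added to the class, the ratio to the G1/S sum was 0.749, 0.715 and 0.704 at 13.5 dpc and 0.740, 0.639 and 0.690 at 15.5 dpc, and the stages overlapped.

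The pocket proteins and E2F factors went both ways, with a class median of -0.025 that was 0.16 with the length trend removed. *E2f2*, an activating E2F factor, is on chromosome 4 from 136172394 to 136196057. It had 358, 326 and 326 normalised counts at 13.5 dpc and 512, 427 and 460 at 15.5 dpc, with no overlap. *E2f2* rose by 0.47 on the log2 scale (SE 0.11, edgeR adjusted p = 0.0224). *E2f3*, another activating E2F factor, on chromosome 13 from 29906575 to 29985668, moved in the opposite direction. It had 841, 857 and 921 normalised counts at 13.5 dpc and 556, 727 and 645 at 15.5 dpc, all below the 13.5 dpc samples. *E2f3* fell by 0.44 on the log2 scale (SE 0.12, edgeR adjusted p = 0.0364). In the 4 fits without a 13.5 dpc sample or without 15.5 dpc replicate 3, the adjusted p was 0.0746 to 0.106 for *E2f2* and 0.108 to 0.140 for *E2f3*. *E2f1*, the third activating factor of the list, had a log2 fold change of 0.28 (SE 0.13, edgeR adjusted p = 0.151) and was called higher without 15.5 dpc replicate 2 (edgeR adjusted p = 0.0137).

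*Rb1*, which encodes the retinoblastoma protein, had the smallest difference of this class. Its 13.5 dpc samples had 138, 137 and 140 normalised counts and its 15.5 dpc samples 129, 164 and 127, so the later samples lay on both sides of the earlier ones. The log2 fold change of *Rb1* was 0.018 (SE 0.14, edgeR adjusted p = 0.937). Its relatives *Rbl1* and *Rbl2*, which encode p107 and p130, had log2 fold changes of -0.12 and -0.03, and the repressive factors *E2f7* and *E2f8* had -0.08 and -0.02, each with an SE of 0.15 to 0.20. All 4 were lowest in 15.5 dpc replicate 1 and had a positive log2 fold change without it. Per exon length *E2f1* was the most abundant of the class, with 17.6 ± 0.562 RPKM at 13.5 dpc and 21.4 ± 3.44 at 15.5 dpc. *E2f3* was above *E2f2* at both stages, with 14.4 ± 0.696 against 5.46 ± 0.301 at 13.5 dpc and 10.6 ± 1.41 against 7.56 ± 0.692 at 15.5 dpc (SD, n = 3).

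Replication genes had log2 fold changes below 0 for 6 of 7 members, with a class median of -0.20, and *Mcm3* passed the test; with library size only all 7 were below 0. The Mcm2 to Mcm7 proteins form the helicase that is loaded onto replication origins, and *Pcna* encodes the clamp of the DNA polymerases. *Mcm3* lies on chromosome 1 from 20802974 to 20820278 and had 3076, 3075 and 3035 normalised counts at 13.5 dpc and 2497, 2508 and 2549 at 15.5 dpc. Within each stage the samples were close, and the stages were well apart. *Mcm3* fell by 0.28 on the log2 scale (SE 0.079, edgeR adjusted p = 0.0408). Without any of the 13.5 dpc samples or 15.5 dpc replicate 3 its adjusted p was 0.135 to 0.164. *Mcm6* had the smallest difference, with 4247, 4423 and 4175 normalised counts at 13.5 dpc and 4119, 4282 and 4182 at 15.5 dpc. These overlap, and the log2 fold change was -0.03 (SE 0.082, edgeR adjusted p = 0.807).

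*Mcm2*, *Mcm4* and *Mcm7* had log2 fold changes of -0.22, -0.24 and -0.20 (edgeR adjusted p = 0.134, 0.109 and 0.110). For each of them every 15.5 dpc sample was below every 13.5 dpc sample, as for *Mcm3*, which makes 4 of 7 members of the class (57.1%) against a background of 23.6% of all genes lower without overlap. Among the 30 further replication genes described below, 7 (23.3%) were lower without overlap. *Mcm5* (-0.03) and *Mcm6* stood apart from these, since their stages overlapped. *Pcna* was the member above 0, with a log2 fold change of 0.22 (SE 0.13, edgeR adjusted p = 0.256), and it was called higher without 15.5 dpc replicate 2 (edgeR adjusted p = 0.0388). *Mcm2* and *Mcm4* were called lower without that sample (edgeR adjusted p = 0.0331 and 0.0203). The counts of *Pcna* and *Mcm7* are uncertain, as other transcripts share 19.1% and 18.1% of their 50-base windows. Per exon length *Mcm6* was the highest of the class, at 117 ± 3.49 RPKM at 13.5 dpc and 114 ± 2.24 at 15.5 dpc (SD, n = 3). The other 6 lay between 52.0 and 81.0 at 13.5 dpc and between 45.4 and 77.4 at 15.5 dpc.

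In the class of mitosis and proliferation, 4 of 11 genes passed the test and all 4 were higher at 15.5 dpc, against 11.6% of all genes higher and 10.7% lower. Of the 32 further mitosis genes described below, 0 passed edgeR's test, with 5 higher and 0 lower at an unadjusted p under 0.05. The class median was 0.16, and -0.037 with library size only, where the median of all genes was -0.22. *Birc5* encodes survivin, a subunit of the chromosomal passenger complex, and lies on chromosome 11 from 117849251 to 117855743. Its 13.5 dpc samples had 1387, 1264 and 1253 normalised counts, and its 15.5 dpc samples 2448, 1528 and 1875. The stages did not overlap, but the 15.5 dpc samples were spread widely. *Birc5* rose by 0.58 on the log2 scale (SE 0.17, edgeR adjusted p = 0.0458), which was 0.39 without 15.5 dpc replicate 1 (edgeR adjusted p = 0.0231). *Cdc20*, the activator of the anaphase-promoting complex in mitosis, is on chromosome 4 from 118432901 to 118437352. It had 2123, 2061 and 2044 normalised counts at 13.5 dpc and 3355, 2476 and 2948 at 15.5 dpc, without overlap. *Cdc20* rose by 0.49 on the log2 scale (SE 0.12, edgeR adjusted p = 0.0275), although other transcripts share 10.4% of its 50-base windows.

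*Aurka*, the Aurora kinase of the spindle poles, on chromosome 2 from 172356190 to 172370535, had 929, 937 and 875 normalised counts at 13.5 dpc and 1416, 1087 and 1215 at 15.5 dpc. Again all 15.5 dpc samples were higher, with replicate 1 the highest. *Aurka* rose by 0.44 on the log2 scale (SE 0.12, edgeR adjusted p = 0.0348). *Plk1*, a kinase that acts from mitotic entry to cytokinesis, on chromosome 7 from 122159437 to 122169875, had 1468, 1500 and 1541 normalised counts at 13.5 dpc and 2044, 1758 and 1893 at 15.5 dpc. The stages were separate here too, and *Plk1* rose by 0.34 on the log2 scale (SE 0.091, edgeR adjusted p = 0.0380). In the fits without a 13.5 dpc sample or without 15.5 dpc replicate 3, the adjusted p was 0.117 to 0.154 for *Birc5*, 0.103 to 0.112 for *Cdc20*, 0.110 to 0.136 for *Aurka* and 0.118 to 0.161 for *Plk1*.

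**Figure D5:**
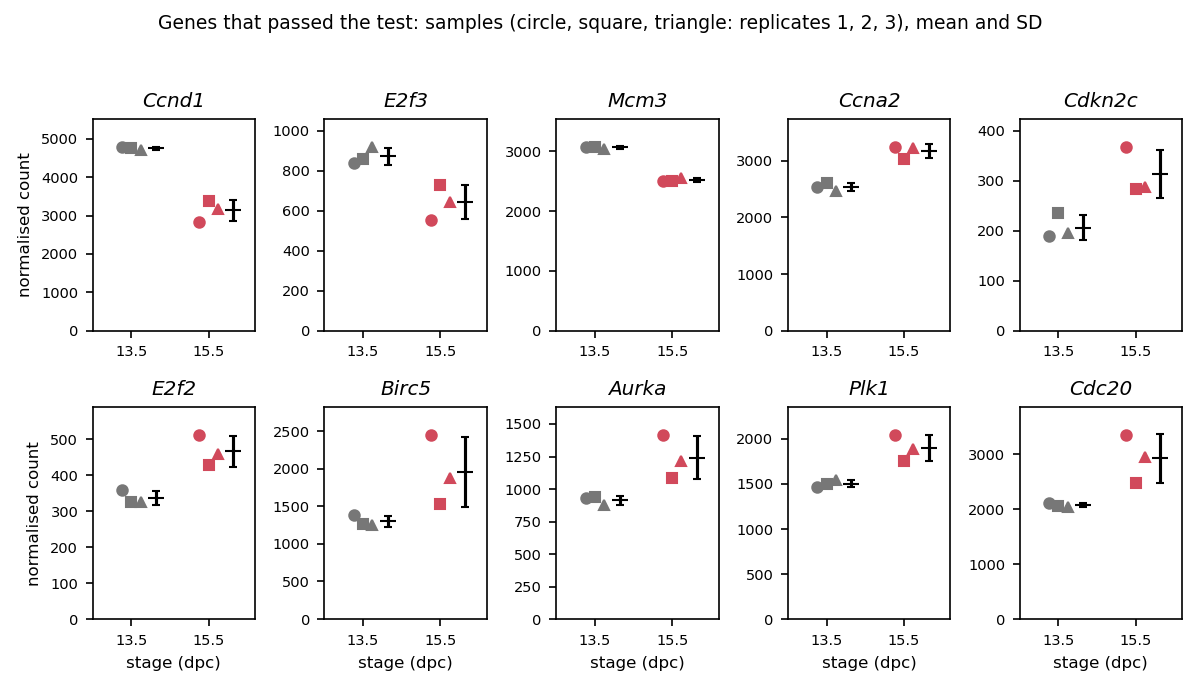
Normalised counts of the 10 genes that passed the test, with a symbol for each replicate of the 13.5 dpc (grey) and 15.5 dpc (red) samples, and bars for the mean and SD of 3 samples. The stages are separate in each panel, and the 15.5 dpc samples of *Birc5*, *Cdc20* and *Aurka* are spread more widely than those of 13.5 dpc.

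The other 7 genes of this class did not pass the test. *Mybl2*, which encodes the B-Myb factor that acts with the MuvB complex on mitotic promoters, had the smallest difference. *Mybl2* had 341, 346 and 358 normalised counts at 13.5 dpc and 292, 390 and 312 at 15.5 dpc. The later samples lay on both sides of the earlier ones, and the log2 fold change was -0.07 (SE 0.13, edgeR adjusted p = 0.719), with 19.3% of its 50-base windows shared with other transcripts. *Foxm1*, a factor that activates G2 and mitosis genes, and *Top2a*, the topoisomerase of dividing cells, both had log2 fold changes of -0.08 (edgeR adjusted p = 0.769 and 0.686). *Mki67*, which encodes the proliferation antigen Ki-67, had a log2 fold change of 0.16 (SE 0.19, edgeR adjusted p = 0.550). That value was -0.068 without 15.5 dpc replicate 2, in which *Mki67* was highest, and 0.43 (edgeR adjusted p = 0.00415) with the length trend removed.

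*Aurkb*, the kinase of the chromosomal passenger complex, and *Cdc25b*, a phosphatase that activates Cdk1, had log2 fold changes of 0.21 (edgeR adjusted p = 0.0968) and 0.14 (edgeR adjusted p = 0.270), and their stages did not overlap. DESeq2 called *Aurkb* higher (adjusted p = 0.0489). The spindle checkpoint kinase gene *Bub1* was the only member of this class with all 15.5 dpc samples below those of 13.5 dpc (log2 fold change -0.23, edgeR adjusted p = 0.188). It was called lower without 15.5 dpc replicate 2 (edgeR adjusted p = 0.0353). Per exon length *Cdc20* was the highest of the class, with 87.9 ± 1.77 RPKM at 13.5 dpc and 124 ± 18.6 at 15.5 dpc (SD, n = 3), and *Mybl2* the lowest, with 5.95 ± 0.149 and 5.66 ± 0.880. The summed level of the class over that of the replication class was 0.912, 0.911 and 0.968 at 13.5 dpc and 1.09, 1.20 and 1.11 at 15.5 dpc, with no overlap between the stages. It was highest in 15.5 dpc replicate 2, where *Mki67* and *Top2a* were highest. The same ratio over the further mitosis and replication genes described below was 1.01, 1.04 and 1.02 at 13.5 dpc and 1.03, 1.11 and 1.10 at 15.5 dpc, and the stages overlapped.

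Of 86 other genes of the cell cycle, 12 (14%) passed the test, 6 higher and 6 lower, against 22.3% of all genes. Among 24 further genes of G1 control, 9 (37.5%) passed it, with 4 higher and 5 lower. *Ccng1*, a cyclin gene induced by p53, had the largest rise of the 86 (log2 fold change 1.09, edgeR adjusted p = 0.000668), from 732 ± 40.0 normalised counts to 1561 ± 34.3 (SD, n = 3). *Btg2*, an antiproliferative gene, rose by 0.79 (edgeR adjusted p = 0.00477), and *Cables1*, which encodes a CDK-binding protein, by 0.76 (edgeR adjusted p = 0.00349). *Mycn*, a growth-promoting Myc factor, went from 598 ± 19.8 to 261 ± 19.7 normalised counts (log2 fold change -1.20, edgeR adjusted p = 0.000716). *Myc* itself was called higher, from 1453 ± 60.7 to 1885 ± 212 normalised counts (log2 fold change 0.38, edgeR adjusted p = 0.0433). *Gadd45a*, a stress-induced growth arrest gene, and *Ccng2*, a cyclin gene of resting cells, had log2 fold changes of -0.67 and -0.62 (edgeR adjusted p = 0.0110 and 0.00814). The changes of these genes, except that of *Myc*, were each larger than that of any of the 42 members tested.

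Of 30 further replication genes, 3 (10%) passed the test, with 2 higher and 1 lower. *Rrm2*, a subunit of ribonucleotide reductase, rose by a log2 fold change of 0.35 (edgeR adjusted p = 0.0310), and *Fen1*, the flap endonuclease, by 0.57 (edgeR adjusted p = 0.0355). Of the exon length of *Fen1*, 78.8% overlaps a gene on the opposite strand that had 33 counts over all samples. Reads of opposite strands were kept apart. *Chaf1b*, a subunit of the chromatin assembly factor, fell by 0.37 on the log2 scale (edgeR adjusted p = 0.0235). The median over the 30 genes was -0.065. Of 32 further genes of mitosis, 0 passed edgeR's test, with 5 higher and 0 lower at an unadjusted p under 0.05, and DESeq2 called 2 higher, where it called 15.2% of all genes higher and 12.2% lower. Their median was 0.0089. Without 15.5 dpc replicate 2, 6 of these 32 were called higher and 4 lower, against 24.7% and 23.3% of all genes.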

How the data were processed

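Poly(A) RNA of 6 pools of wt pancreata was sequenced from a single end after strand-specific library preparation. Reads were mapped by the authors with GSNAP on mm10, and those with a unique position were assigned to Ensembl genes by featureCounts 1.4.6. The deposited values are raw counts per gene. The table also holds the exon length of each gene. All 6 per-sample columns were used. Whether counting used the strand is not given in the sources used here. Of genes lying wholly within exons of another gene, 0 of 323 on the same strand but 29 of 149 on the opposite strand had 10 counts or more in all, so reads of opposite strands were kept apart.

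The stages were compared with edgeR 4.0.16 in R 4.3.3 (filterByExpr, TMM, quasi-likelihood test without covariates, Benjamini-Hochberg adjustment over 15578 genes). The standard error is the size of the log2 fold change over the root of the F statistic. DESeq2 1.42.0 was an alternative, beside other scalings and filters, the replicate number as a block, removal of a lowess trend on exon length (span 0.5) and each sample left out in turn. Steps were tested on simulated data. There edgeR recovered 68 of 100 genes changed by 1 on the log2 scale and 98 of 100 changed by 2. It made 16 false calls, and changes as small as those of the members were not simulated. P-values measure the spread between pools. A floor of 3 counts was used. The depths limit what low genes can show, and counting error is only part of the spread.

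The members and lists were chosen with earlier results of these data known. Values per sample are given for genes that passed the test and for the largest and smallest difference of each class. Of each other list the 3 called genes of lowest adjusted p per direction are named, and *Myc* is named beside *Mycn*. Coordinates of genes are those of the deposited table (mm10), and coordinates of promoters are those of the RefSeq promoter table (GRCm38.p6). Figures were drawn with Python 3.11.15 and matplotlib 3.10.9. Promoter windows were not analysed here for *Ccnd1*, *Ccnd2*, *Ccne2*, *Ccna2*, *Rb1*, *Mcm4*, *Foxm1* and *Aurkb*.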

Additional observations from a re-analysis of the deposited data

How the results depend on the processing

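Of 630 comparisons of a member with an alternative, 497 kept direction and side of the threshold, 56 lost a call, 22 gained one and 55 changed sign, none of the latter among the 10 called genes. With all samples 7 members were called higher and 3 lower. The numbers were 7 and 2 with RLE (12% and 10.1% of all genes), 5 and 3 with upper quartile scaling (10.7% and 11.9%), 5 and 2 with no filter (7.34% and 7.07%), 0 and 7 with library size only, 0 and 0 with the thresholds of the study, 3 (*E2f2*, *Birc5*, *Cdc20*) and 1 (*Ccnd1*) with the replicate block (9.15% and 8.02%), 8 and 3 with the block and the length trend removed (15.7% and 12.3%), where *Plk1* lost its call (adjusted p = 0.0708), and 0 to 14 and 1 to 8 across the fits without a sample. Without 13.5 dpc replicate 1, 2 or 3 or without 15.5 dpc replicate 3 they were 0 and 1, and without 15.5 dpc replicate 2 they were 14 and 8. Without 15.5 dpc replicate 1 they were 8 and 3, against 14.1% and 12.8% of all genes. The cause was not tested. Samples of the same number were not taken as pairs, since their deviations from the stage means correlated at 0.22, -0.22 and 0.04. With the number as a block 2676 genes were called, against 3467 without it, and *Ccne1* turned to -0.0056.

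The member median of -0.0076 was -0.22 with library size only, 0.0095 with RLE, -0.039 with upper quartile scaling, 0.0092 with DESeq2, -0.031 with no filter, 0.078 with the length trend removed, 0.074 with that and the replicate block, and -0.0083 to 0.040 without a sample. For G1/S cyclins and kinases (-0.065) it was -0.29 with library size only, -0.15 with the length trend removed, with or without the replicate block, and -0.14 to 0.025 without a sample. The S/G2/M class (0.32) gave 0.093 with library size only and 0.18 to 0.40 without a sample, the CDK inhibitors (0.21) gave -0.0044 and 0.18 to 0.31, and mitosis and proliferation (0.16) gave -0.037 and 0.12 to 0.23. Pocket proteins and E2F factors (-0.025) gave -0.22, 0.16 with the length trend removed, with or without the replicate block, and -0.19 to 0.092 without a sample. Replication (-0.20) gave -0.41 with library size only, -0.18 with RLE and with DESeq2, -0.23 with upper quartile scaling, -0.22 with no filter, -0.11 with the length trend removed, with or without the replicate block, and -0.20 to -0.16 without a sample. The cause was not tested.

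With library size only, the sign turned for *Ccne1* (-0.22), *Ccne2* (-0.18), *Ccnb1* (-0.096), *Cdkn1a* (-0.076), *Cdkn2d* (-0.050), *Rb1* (-0.19), *Pcna* (-0.0062), *Mki67* (-0.037) and *Cdc25b* (-0.069). It turned with upper quartile scaling for *Ccne1* (-0.028), *Ccne2* (-0.0037) and *Rb1* (-0.014), with no filter for *Ccne1* (-0.021) and *Rb1* (-0.0050), and with at least 10 counts in every sample for *Ccne1* (-0.0084). With the length trend removed, and in parentheses second with the replicate block as well, it turned for *Ccne1* (-0.052, -0.057), *Cdkn2d* (-0.075, -0.076), *Rbl1* (0.031, 0.030), *Rbl2* (0.16, 0.16), *E2f7* (0.17, 0.17), *E2f8* (0.10, 0.088), *Foxm1* (0.052, 0.045), *Mybl2* (0.025, 0.019) and *Top2a* (0.18, 0.18). Without a sample the log2 fold change ranged over 0 for *Ccnd3* (-0.097 to 0.076), *Cdk4* (-0.19 to 0.084), *Ccne1* (-0.13 to 0.10), *Ccne2* (-0.084 to 0.11), *Rb1* (-0.10 to 0.082), *Rbl1* (-0.26 to 0.00088), *Rbl2* (-0.14 to 0.10), *E2f7* (-0.29 to 0.041), *E2f8* (-0.25 to 0.16), *Foxm1* (-0.22 to 0.094), *Mybl2* (-0.19 to 0.018), *Top2a* (-0.22 to 0.024) and *Mki67* (-0.068 to 0.30).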
